A study of Mus musculus with 20 samples.

Results

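The genes described here are 9 regulators that act on mRNA or protein stability in T cells, namely the Roquin genes Rc3h1 and Rc3h2, the Regnase gene Zc3h12a and the ubiquitin ligase genes Itch, Cblb, Cul3, Asb2, Rnf128 and Peli1. Their probes were found by the gene symbol in the scanner files, which gave 9 of the 30199 gene names and 12 of the 39429 probes on the array. Rc3h1, Cblb and Asb2 had 2 probes each, and both Asb2 probes were read separately. All 12 probes passed the filter on dim probes, which 22264 probes passed in all.

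CD4 T cells were sorted from B6.Cg-Foxp3<tm1Mal> mice, a strain in which green fluorescent protein (GFP) reports Foxp3, and every group carried this reporter. Peripheral lymph nodes (pLN) were taken on day 12 or 25 (d12, d25) after subcutaneous immunisation with the protein keyhole limpet haemocyanin in alum, whereas for Peyer's patches (PP), the lymphoid follicles of the gut wall, the labels name no immunisation. From pLN, 4 populations were sorted: naive T cells (GFP-, low for the surface receptor PD1), T follicular helper (TFH) cells (GFP-, high for PD1, positive for the surface epitope GL7), regulatory T (Treg) cells (GFP+, low for PD1) and T follicular regulatory (TFR) cells (GFP+, high for PD1, with or without GL7). From PP, TFH cells with GL7 (GL7+) and without it (GL7-), Treg cells and TFR cells were sorted. Mice were 8 to 14 weeks old, and each sample pooled 8 to 15 animals of both sexes. The groups of pLN d12 and PP had 2 arrays each and those of pLN d25 had 1, so 20 arrays made up 12 groups.

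The arrays lay on 5 slides of 4, each holding the 4 groups of 1 tissue and day. Slides 1 and 2 held pLN d12, slide 3 held pLN d25, and slides 4 and 5 held PP, so that tissue or day cannot be told apart from slide. The labels give 50 ng of RNA for each array of slides 1 and 4 and 40 ng for those of slides 2, 3 and 5. Between the replicates of pLN d12 and of PP, RNA input thus cannot be told apart from slide. The 2 arrays of a group correlated with r from 0.955 to 0.987 over the tested probes. The summed intensity of 4 Treg markers was 391 to 9441 on naive and TFH arrays and 44143 to 104838 on Treg and TFR arrays. Slide 4 stood apart: the sum of 10 B cell markers was 25386 to 188153 on its arrays and 6504 to 15181 on slide 5, with 9 of the 10 markers detected on each of these arrays. On slides 1 to 3 it was highest on pLN d12 TFH replicate 1, at 26492, which exceeded the lowest array of slide 4. The sum of 7 epithelial markers was 3409 to 8224 on slide 4 and 707 to 2234 on slide 5. The array of pLN d12 TFR replicate 2 had a median local background of 268, against 24 to 78 on the other arrays. In bulk samples of this kind, fewer expressing cells and less RNA per cell cannot be told apart.

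As background, the Roquin proteins bind stem-loops in mRNAs and recruit the decay machinery, and Regnase-1 (Zc3h12a) is an endonuclease that cuts an overlapping set of mRNAs. Loss of Roquin function in mice is known for spontaneous accumulation of TFH cells. Ubiquitin ligases set protein levels instead: Itch, Cblb, Rnf128 (GRAIL) and Peli1 are known as brakes or modulators of T cell activation, Cul3 is the scaffold of a large family of ligase complexes, and Asb2 is a substrate receptor of other cullin complexes.

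The 2 Asb2 probes are shown because their values disagreed. Both are 60 bases long, and capitals mark the longest run that the pair has in common, which is 6 bases.
A_51_P115715: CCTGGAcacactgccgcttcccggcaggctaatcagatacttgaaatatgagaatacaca
A_55_P2276221: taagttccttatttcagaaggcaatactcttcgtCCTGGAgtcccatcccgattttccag

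By the array annotation, A_51_P115715 lies on the minus strand at chr12:104559752-104559811 of mm9, and its accession is that of Asb2 in RefSeq. A_55_P2276221 has no genome position in the array annotation, and its accession did not match a RefSeq gene. The description beside it in the scanner files names the mRNA of an antibody to the epidermal growth factor receptor, although its gene symbol reads Asb2. The accessions of the other 11 member probes matched the RefSeq symbol of their gene. The array annotation does not say which part of a transcript a probe lies in.

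Asb2 showed the widest span of the 9 genes. By probe A_51_P115715, the normalised intensity was 8905 and 8142 in pLN d12 TFH cells, whereas both naive arrays, at 20 and 95, were not well above background. The pLN d12 Treg arrays gave 262 and 197, and the pLN d12 TFR arrays gave 875 and 1045. The 4 cell types of pLN d12 thus did not overlap, with TFH cells highest and TFR cells between TFH and Treg cells. How many of all tested probes separate these cell types was not examined. In PP the TFH GL7+ arrays gave 32375 and 33117, the TFH GL7- arrays 27794 and 28156, the TFR arrays 26132 and 29969, and the Treg arrays 6456 and 4772. Each PP population lay above the same population of pLN on every array, and the TFR arrays of PP overlapped those of TFH GL7- cells and lay below both of TFH GL7+ cells.

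**Figure D1:**
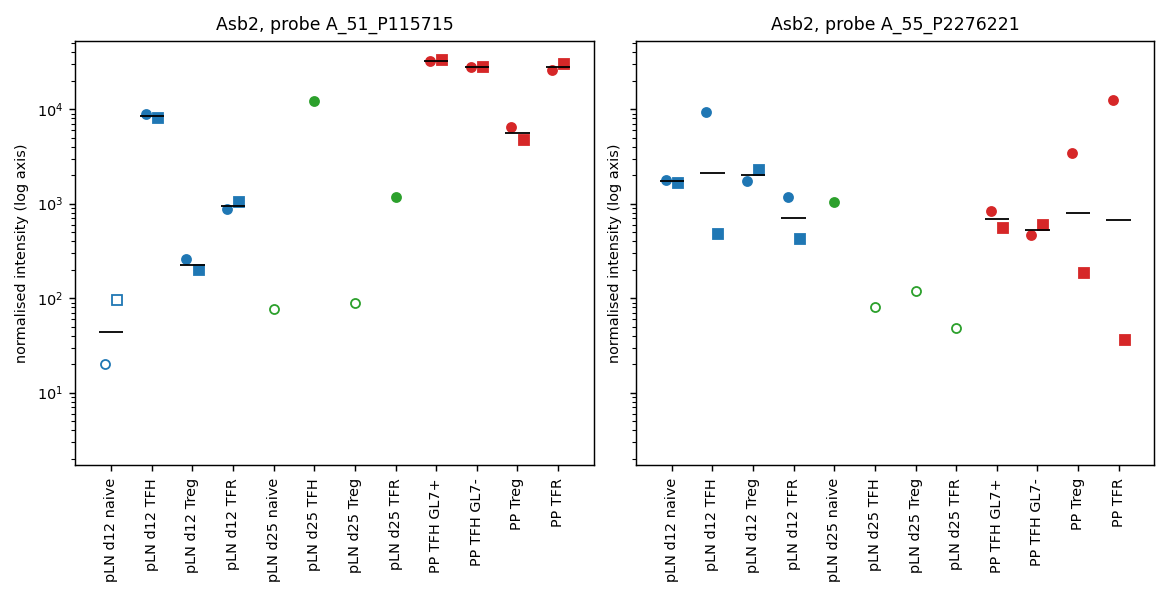
Normalised intensity (log axis) of both Asb2 probes on each of the 20 arrays, by group; circles are replicate 1 (or the lone array), squares replicate 2, open symbols are values not well above background, and bars are geometric means of 2 arrays. By A_51_P115715 the arrays of each group lie together except for the naive pair at 20 and 95, whereas by A_55_P2276221 the PP TFR arrays lie at 12361 and 36.

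By this probe the pLN d12 group mean was at least 144-fold higher in TFH than in naive T cells, leaving out the spread between arrays. The bound raises each naive array to at least its lowest detected intensity (log2 difference as fitted 7.61 ± 0.54 (SE), limma adjusted p = 9.46e-06). Without that bound, TFH minus naive was 8.80 on slide 1 and 6.42 on slide 2 on the log2 scale. Of the 12 member probes, 3 were called in this comparison, 2 higher and 1 lower, beside 15.0% of all tested probes (9.29% higher and 5.68% lower). A call here means an adjusted p under 0.05 together with a log2 difference of 1 or more, up or down. In the same way, the group mean was at least 3.83-fold higher in Treg than in naive T cells (adjusted p = 0.0348). This bound also leaves out the spread between arrays. This probe was the only member probe called there, beside 3.75% of all tested probes (2.83% higher and 0.921% lower). Leaving out Treg replicate 1 or 2 ended that call (adjusted p = 0.269 and 0.105), as did leaving out slide 4 (0.212). On the log2 scale, Treg minus naive was 3.71 on slide 1, 1.05 on slide 2 and 0.21 on slide 3 (d25). Since no naive array was well above background, these differences within slides have no exact size.

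In pLN d12, Asb2 was 4.21-fold higher in TFR than in Treg cells (log2 difference 2.07 ± 0.54, adjusted p = 0.0332), and 8.90-fold lower in TFR than in TFH cells (log2 difference -3.15 ± 0.54, adjusted p = 0.00634). In the first of these comparisons 2 member probes were called, 1 higher and 1 lower, beside 8.57% of all tested probes (5.90% higher and 2.67% lower), and in the second 1, beside 5.15%. On the slides taken singly, TFR minus Treg was 1.74 and 2.41 and TFR minus TFH was -3.35 and -2.96 on the log2 scale. The calls were near their limit: without any 1 of the 4 arrays the TFR against Treg call was lost (adjusted p from 0.0910 to 0.185), and without TFH replicate 1 or TFR replicate 1 that against TFH was lost (0.0547 and 0.0569). Without slide 4, which holds no pLN array but enters the shared estimate of spread, both calls were also lost (adjusted p = 0.138 and 0.0787). On the d25 arrays, which have no replicate, TFH cells gave 12300, TFR cells 1168, Treg cells 88 and naive cells 76, the last pair not well above background. TFH cells were thus above TFR cells, and TFR above Treg cells, on slide 3 also.

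In PP, Asb2 was 5.04-fold higher in TFR than in Treg cells (log2 difference 2.33 ± 0.54, adjusted p = 0.0182), with 2.02 on slide 4 and 2.65 on slide 5. In this comparison 2 member probes were called, both higher, beside 9.47% of all tested probes (6.36% higher and 3.12% lower). The Asb2 call was lost without TFR replicate 1, Treg replicate 2 or TFR replicate 2 (adjusted p from 0.0702 to 0.120) and without slide 4 (0.239), with the direction kept. Between TFR and TFH GL7+ cells of PP the log2 difference was -0.23 (95% interval -1.42 to 0.97), and no member probe was called, beside 3.49% of all tested probes. Whether the TFR minus TFH difference itself changed between PP and pLN d12 was tested as an interaction, which gave 2.93 ± 0.76 and an adjusted p of 0.184, not called. With normexp background correction in place of the deposited processing it was called (2.73, adjusted p = 0.00625).

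Between tissues, Asb2 was 24.4-fold higher in Treg cells of PP than of pLN d12 (log2 difference 4.61 ± 0.54, adjusted p = 0.00189), and 29.3-fold higher in TFR cells (4.87 ± 0.54, adjusted p = 4.91e-04). It was the only member probe called in either, beside 2.25% of all tested probes for Treg and 11.5% for TFR cells. For TFH cells the log2 difference was 1.94 ± 0.54 with an adjusted p of 0.0649, and no member probe was called, beside 4.67%, while 2 had an unadjusted limma p under 0.05 (Asb2 A_51_P115715 and Cblb A_65_P14951). Normexp correction made that a call (1.87, adjusted p = 0.00179). The TFR call held under all 12 alternatives, whereas the Treg call was lost with slide as a random block (adjusted p = 0.0519), without slide 4 (log2 difference 4.39, 0.0836) and with the compared groups alone (0.179). On slide 5, where the B cell sum was 6504 to 15181, the PP values of Asb2 were as high as on slide 4 except in Treg cells, at 4772 against 6456. The sum of 5 myeloid markers, most of it Cst3, was 60421 and 56338 on the PP TFR arrays, with 4 of 5 detected, and 33115 and 32811 on the pLN d12 TFR arrays, with 3 of 5 detected. Of the others, Lyz2 gave 3481 and 471 in PP against 1414 and 1042 in pLN d12, and Cd14 was not detected on any of these 4 arrays. Csf1r and Itgax were thus both detected on the PP TFR arrays, whereas the pLN d12 TFR arrays lacked a further marker besides Cd14. The parts of B cell, epithelial and myeloid RNA in these tissue differences were not tested.

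In the order of the 12 group means, Asb2 ran from TFH GL7+, TFR and TFH GL7- cells of PP through TFH cells of pLN d25 and d12 and Treg cells of PP to TFR cells, Treg cells and naive T cells of pLN. Of the 11 steps in that order, 2 had a 95% interval wholly above no difference, that from PP Treg to pLN d25 TFR cells (2.25) and that from pLN d12 TFR to pLN d12 Treg cells (2.07). These intervals were not adjusted for the number of steps, and the groups were sorted by the same means. Over the 12 group means, the genes most like Asb2 were Podnl1 (Pearson r = 0.992), Metrnl (0.977) and Grn (0.975), given as a description of means that share arrays and slides.

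The other Asb2 probe, A_55_P2276221, did not separate the cell types. It gave 9424 and 478 in pLN d12 TFH cells, 3468 and 184 in PP Treg cells and 12361 and 36 in PP TFR cells, so that arrays of the same group spanned much of the probe's range of 36 to 12361 over all arrays. Its residual SD was 2.62 on the log2 scale, against 0.59 for A_51_P115715 and a median of 0.35 over all tested probes, and it was called in none of the 13 comparisons nor by the F test over the 12 groups (adjusted p = 0.859). In pLN d12 naive cells, in which A_51_P115715 was not well above background, this probe gave 1790 and 1659.

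In most groups of 2 arrays, values of this probe moved with the sum of B cell markers. The sum was 26492 and 6564 on the pLN d12 TFH arrays, 123079 and 15181 on the PP Treg arrays, and 188153 and 13711 on the PP TFR arrays. In 7 of the 8 groups of 2 arrays, the array with the higher B cell sum also had the higher value of this probe, against 2 of 8 for A_51_P115715. Within each PP group the higher sum was that of slide 4, so these pairs are not independent. How many of all tested probes reach such a count was not examined. Across groups the order was not kept, as PP TFH GL7+ replicate 1, with a B cell sum of 45230, gave 846 on this probe. The probes most like A_55_P2276221 over the group means were those of Igh-VJ558 (r = 0.942), U18562 (0.942) and M83037 (0.924), all annotated to immunoglobulin variable regions. The part of B cell RNA in this probe's values was not tested.

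**Figure D2:**
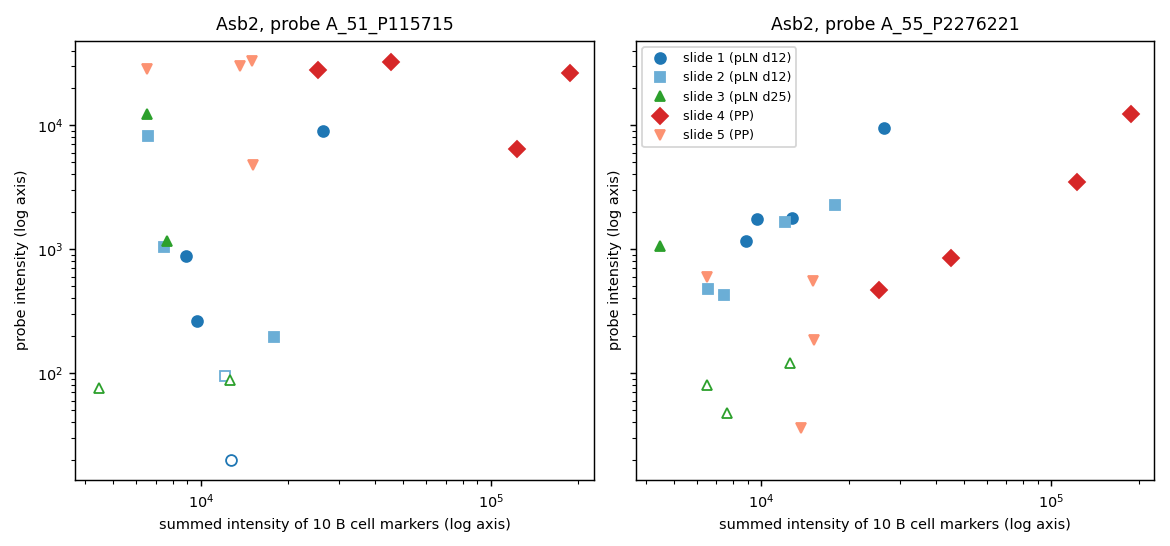
Intensity of each Asb2 probe against the summed intensity of 10 B cell markers on the same array (both log axes), 20 arrays, with colour and shape for the slide and open symbols for values not well above background. For A_55_P2276221 the PP TFR array at 12361 has a B cell sum of 188153 and the one at 36 a sum of 13711, whereas for A_51_P115715 the PP arrays of slides 4 and 5 lie at like intensities.

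Rnf128, a membrane-bound ligase known from anergic T cells, showed an order of cell types similar to that of Asb2 within pLN. It gave 6516 and 3604 in pLN d12 TFH cells and 212 and 159 in naive T cells. Treg arrays gave 532 and 411 and TFR arrays 1486 and 1278, so that again none of the 4 cell types overlapped. The share of all tested probes that do so was not examined here either. On the d25 arrays Rnf128 was 8186 in TFH, 1865 in TFR, 503 in Treg and 234 in naive T cells, the same order.

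TFH cells had 26.4-fold more Rnf128 signal than naive T cells (log2 difference 4.72 ± 0.55, adjusted p = 1.88e-04), a call kept under all 13 alternatives. The steps between the other cell types of pLN d12 were not called: 1.35 ± 0.55 for Treg minus naive (adjusted p = 0.357), 1.56 ± 0.55 for TFR minus Treg (0.107) and -1.81 ± 0.55 for TFR minus TFH (0.0980). With slide as a fixed block all 3 were called (adjusted p = 0.00921, 0.00196 and 0.00162), and without slide 4 the last 2 were (0.0444 and 0.0467). The array of slide 1 lay above that of slide 2 in each cell type.

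In PP, Rnf128 gave 6374 and 3827 in TFH GL7+ cells, 6263 and 3253 in TFH GL7- cells, 4584 and 2971 in TFR cells and 1548 and 474 in Treg cells. Slide 4 lay above slide 5 in each population, and the Treg arrays were below all others. TFR exceeded Treg cells 4.31-fold (log2 difference 2.11 ± 0.55, adjusted p = 0.0326), at 1.57 on slide 4 and 2.65 on slide 5. The call was lost without TFR replicate 1 (adjusted p = 0.185), Treg replicate 2 (0.239) or TFR replicate 2 (0.0696), and without Treg replicate 2 the difference was 1.25. Unlike for Asb2, no tissue difference was called for Rnf128; the log2 differences of PP minus pLN d12 were 0.87 ± 0.55 in Treg and 0.03 ± 0.55 in TFH cells, and in TFR cells PP was 2.68-fold higher (95% interval 1.14 to 6.27). The difference between the genes was not tested. The genes most like it over the group means were Krt81 (r = 0.990), Fam43a (0.988) and Cxcr5 (0.984), the last being the chemokine receptor that marks follicular T cells.

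**Figure D3:**
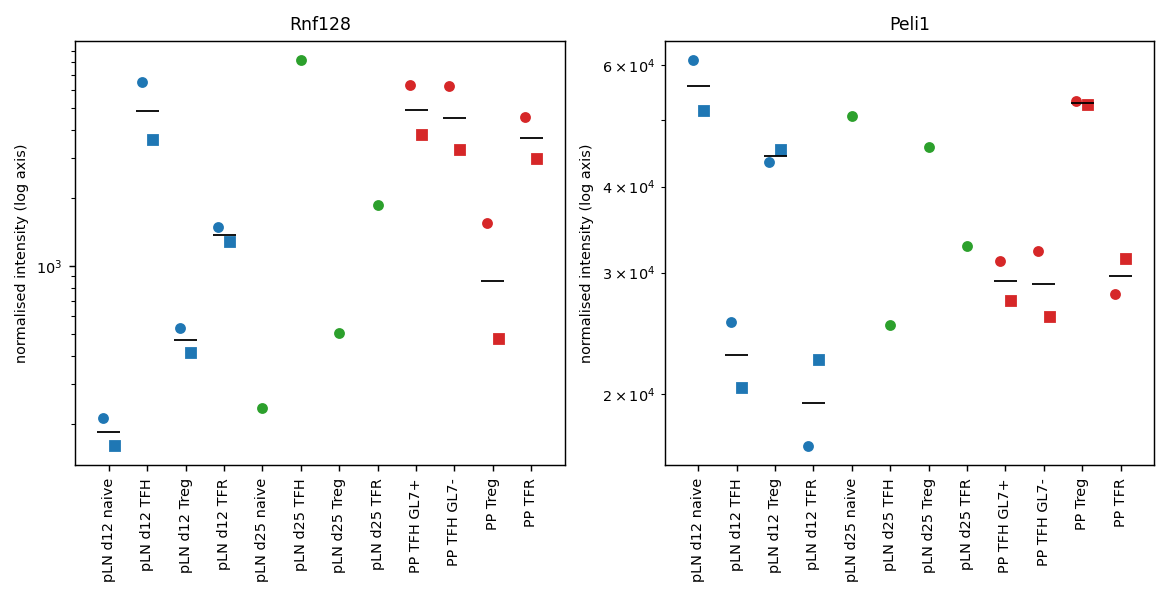
Normalised intensity (log axis) of Rnf128 and of Peli1 on each array, by group; circles are replicate 1 (or the lone array), squares replicate 2 and bars geometric means of 2 arrays. Rnf128 is lowest in naive T cells (159 to 234) and Peli1 is high in naive and Treg cells (43384 to 61070) and lower in TFH and TFR cells (16798 to 32806).

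The promoters of Asb2 and Rnf128 are shown because both genes were higher in TFH than in naive T cells. Each run holds the 250 bases before a RefSeq start (GRCm38.p6), and capitals mark matches to the E-box CANNTG, a motif of basic helix-loop-helix factors that reads the same on both strands. Asb2 lies on the minus strand (chr12:103356002-103356251) and Rnf128 on the plus strand (chrX:139610370-139610619).
Asb2: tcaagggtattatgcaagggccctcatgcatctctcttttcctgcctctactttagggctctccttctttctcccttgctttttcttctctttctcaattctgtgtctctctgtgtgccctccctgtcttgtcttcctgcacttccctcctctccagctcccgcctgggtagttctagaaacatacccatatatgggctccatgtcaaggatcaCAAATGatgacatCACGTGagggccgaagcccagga
Rnf128: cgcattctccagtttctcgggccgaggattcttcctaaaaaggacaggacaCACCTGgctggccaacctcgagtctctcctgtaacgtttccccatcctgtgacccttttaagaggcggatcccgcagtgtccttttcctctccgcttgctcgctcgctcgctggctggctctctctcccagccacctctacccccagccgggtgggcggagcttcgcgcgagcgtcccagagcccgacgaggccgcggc

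This Asb2 promoter held 2 matches and that of Rnf128 held 1, while the promoter of the other Asb2 start, at chr12:103338391-103338640, held 0. Of 32851 such promoters, 66.2% held at least 1 match. The Rnf128 match was of the form CAGGTG or CACCTG, which 17.2% of promoters held. A match is a run of letters and says nothing of binding.

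Peli1, a ligase known to restrain T cell activation, went the other way. Naive T cells of pLN d12 gave 61070 and 51463 and TFH cells 25437 and 20368. Treg arrays gave 43384 and 45205 and TFR arrays 16798 and 22425. Naive and Treg cells were thus high, and TFH and TFR cells, which overlapped, were low. The same held for PP, with 53188 and 52632 in Treg cells against 27926 and 31448 in TFR, 31158 and 27292 in TFH GL7+ and 32232 and 25906 in TFH GL7- cells. On the d25 arrays it was 50721 in naive, 45700 in Treg, 32806 in TFR and 25159 in TFH cells.

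Peli1 was 2.46-fold lower in TFH than in naive T cells (log2 difference -1.30 ± 0.20, adjusted p = 0.00112) and 2.28-fold lower in TFR than in Treg cells of pLN d12 (-1.19 ± 0.20, adjusted p = 0.00408). Without TFR replicate 1 the second difference was -0.98 with an adjusted p of 0.0451, just under the minimum for a call. With the compared groups alone neither was called (adjusted p = 0.0698 and 0.0797). In PP, TFR minus Treg was -0.84 ± 0.20 (adjusted p = 0.0227), also under that minimum, and -1.02 with scaling to the 75th percentile in place of quantile normalisation, which made it a call (0.00778). Whether this difference changed between tissues gave 0.35 ± 0.29 and was not called; none of the member probes was called for a change between PP and pLN d12 in TFR minus Treg or in TFR minus TFH, beside 0.557% and 0.593% of all tested probes. The genes most like Peli1 were LOC101056029 (r = 0.973), Mef2a (0.972) and Smad4 (0.971).

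**Figure D4:**
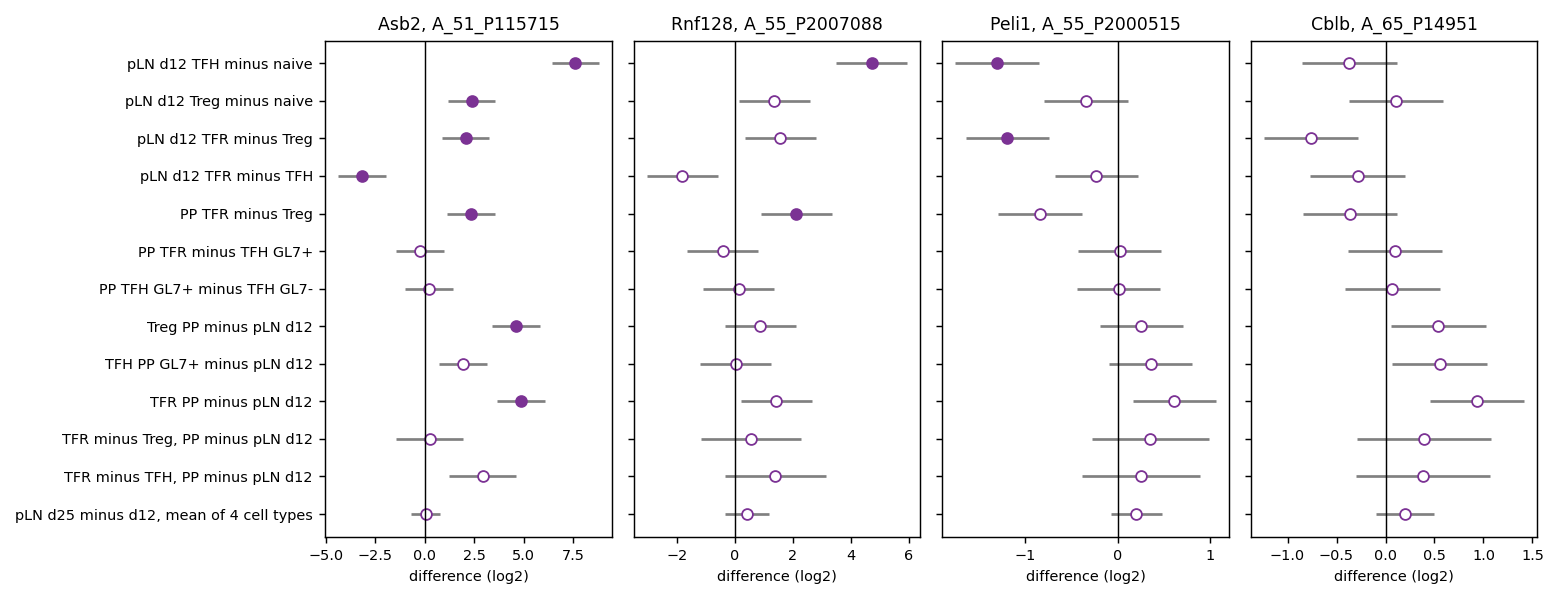
Log2 difference with its 95% interval (limma) for the probes of Asb2, Rnf128, Peli1 and Cblb that the F test called, in each of the 13 comparisons; filled points were called. Asb2 was called in 7 comparisons, Rnf128 in 2, Peli1 in 2 and Cblb in 0, and the scale of the axis differs between panels.

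Cblb, which restrains signalling through the T cell receptor in the absence of costimulation, varied less. Its probe A_65_P14951 gave 1962 and 2420 in pLN d12 TFR cells, 2369 and 2976 in TFH cells, 3538 and 3323 in naive T cells and 3654 and 3725 in Treg cells. In PP it gave 4552 and 6320 in Treg cells, 3637 and 4773 in TFR cells, and 3474 to 4020 in TFH cells. Treg arrays thus lay above TFR arrays on each of the 5 slides, with TFR minus Treg from -0.90 to -0.32 on the log2 scale.

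The F test over the 12 groups called this probe (adjusted p = 0.0377), together with Asb2 A_51_P115715, Rnf128 and Peli1, so that 4 of the 12 member probes were called, beside 33.5% of all tested probes. In pairs of groups the Cblb probe passed the p but not the minimum fold: TFR minus Treg of pLN d12 was -0.76 ± 0.22 (adjusted p = 0.0487) and PP minus pLN d12 in TFR cells was 0.94 ± 0.22 (0.0161). The latter was called without slide 4 (1.13), without pLN d12 TFR replicate 2 (1.09) and without PP TFR replicate 1 (1.13). The other Cblb probe, A_55_P2165120, gave -0.90 ± 0.38 and 0.51 ± 0.38 in the same comparisons and was not called (adjusted p = 0.185 and 0.433). It was higher on slide 4 (816 to 1193) than on slide 5 (447 to 742), whereas A_65_P14951 was lower on slide 4 in each population.

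Zc3h12a, the Regnase-1 gene, was near the limit of detection. It was detected on 10 of 20 arrays and its intensity ran from 20 to 171. Both TFH arrays of pLN d12 were detected, at 56 and 104, and neither naive array was, at 20 and 29. With each naive array raised to at least its lowest detected intensity, the group means differed at least 1.36-fold, leaving out the spread between arrays. TFH minus naive was 1.66 ± 0.65 as fitted (95% interval 0.21 to 3.12, adjusted p = 0.113) and not called in the main test. It was called with slide as a fixed block (adjusted p = 0.00242), with scaling to the 75th percentile (0.0396) and without slide 4 (0.0449). In PP, TFR cells gave 76 and 171 and Treg cells 24, which was not detected, and 95, a difference of 1.26 ± 0.65 that was called with the fixed block alone (0.0133).

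The Roquin genes showed no called difference. Rc3h1 ran from 230 to 414 over the 20 arrays by A_52_P475886 and from 2411 to 3982 by A_55_P2096305, a span of 1.80-fold and 1.65-fold, and Rc3h2 ran from 240 to 673, all detected throughout. The lone d25 arrays gave 402 in naive, 230 in TFH, 244 in Treg and 238 in TFR cells by A_52_P475886. By A_55_P2096305 they gave 3955, 3516, 3372 and 3982. In pLN d12 the TFH minus naive difference was 0.09 (95% interval -0.46 to 0.65) by A_52_P475886 and -0.12 (-0.57 to 0.33) by A_55_P2096305. For Rc3h2 it was -0.02 (-0.99 to 0.95), the widest of these intervals. None of these 3 probes was called in any of the 13 comparisons or by the F test (adjusted p from 0.461 to 1.00).

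Itch and Cul3 were likewise not called in any comparison or by the F test (adjusted p = 0.701 and 1.00). Itch, a ligase whose loss in T cells is known to impair TFH cells, ran from 4746 to 9949, and its lowest arrays were those of pLN d12 TFR cells at 4746 and 5648. TFR minus Treg was -0.41 ± 0.23 in pLN d12 and -0.20 ± 0.23 in PP. Cul3 ran from 1274 to 3659, and its highest array, at 3659, was PP Treg replicate 2, the other PP Treg array being at 1516.

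**Figure D5:**
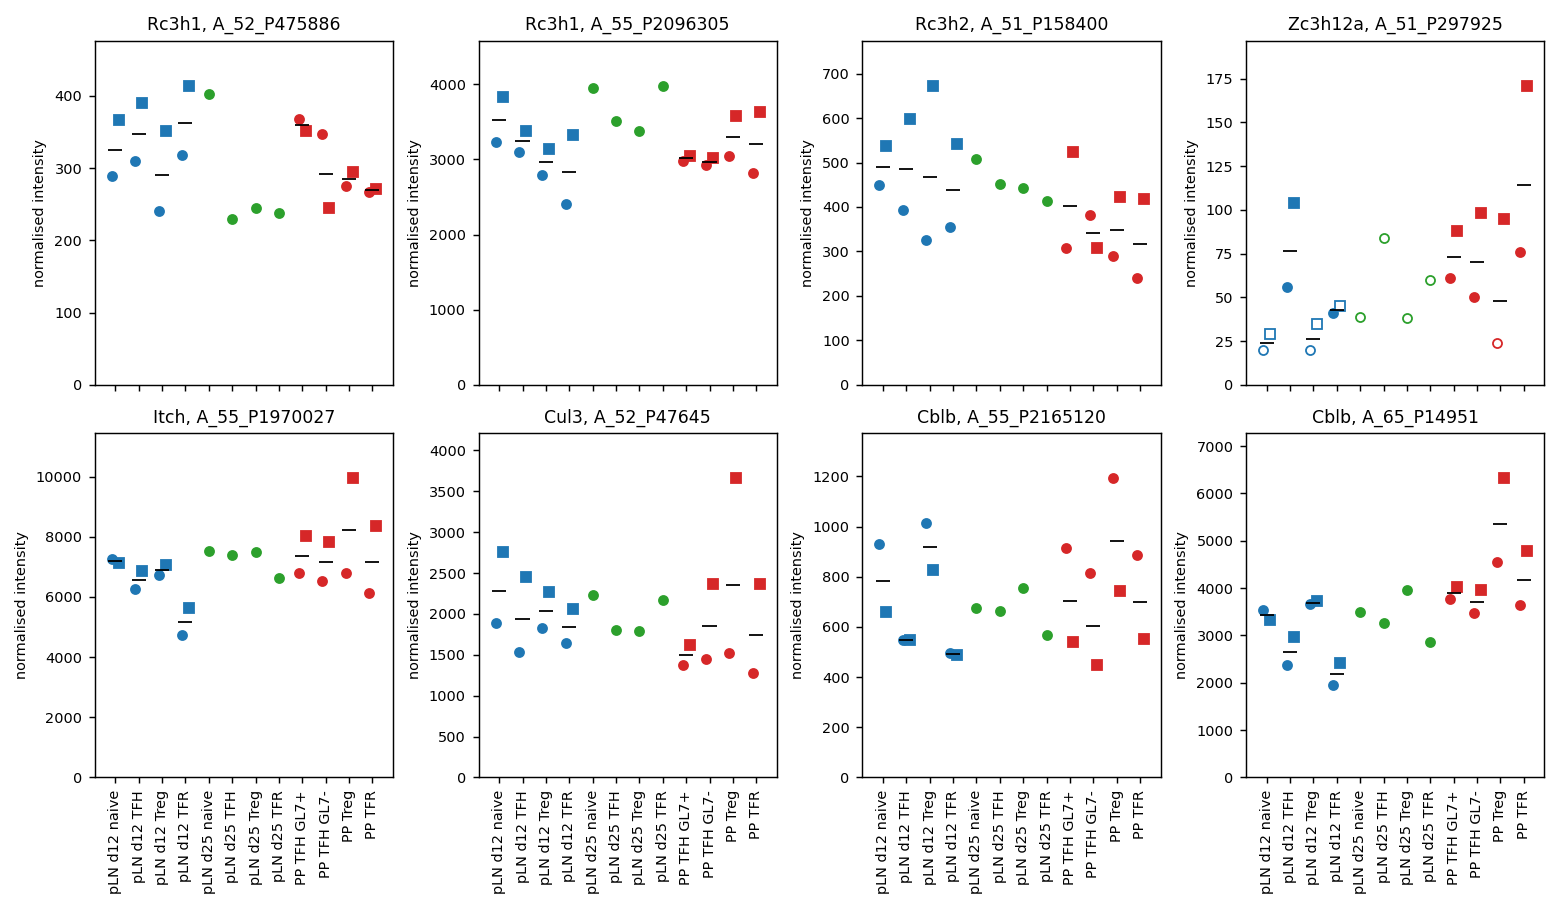
Normalised intensity (linear axis from 0, its own scale in each panel) of the probes of Rc3h1, Rc3h2, Zc3h12a, Itch, Cul3 and Cblb on each array, by group; circles are replicate 1 (or the lone array), squares replicate 2, open symbols are values not well above background, and bars are geometric means. Zc3h12a is detected on 10 of 20 arrays, and the other probes are detected on all arrays and vary by no more than 3.22-fold.

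Between TFH GL7+ and TFH GL7- cells of PP no member probe was called, beside 0.00898% of all tested probes. Asb2 A_51_P115715 was 1.17-fold higher in GL7+ cells (95% interval 0.510 to 2.68), and the log2 difference was 0.13 (95% interval -1.10 to 1.36) for Rnf128 and 0.01 (-0.44 to 0.46) for Peli1. Between d25 and d12 of pLN, over the mean of the 4 cell types, again no member probe was called, beside 0.00449% of all tested probes. For Asb2 A_51_P115715 the difference was 0.06 ± 0.33, for Rnf128 0.41 ± 0.34 and for Peli1 0.20 ± 0.12, with day and slide 3 not to be told apart. Of the 12 member probes, 0 had an unadjusted limma p under 0.05 between GL7+ and GL7- cells, 0 between TFR and TFH GL7+ cells of PP and 1 between the days, which was Asb2 A_55_P2276221. Over the 12 member probes the median log2 difference was between -0.26 and 0.49 in the 13 comparisons, beside -0.09 to 0.03 over all tested probes.

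Partners of these regulators were read as 3 lists. Of 14 genes of RNA decay, 13 were tested, and in TFH against naive T cells 1 was higher and 0 lower, beside 9.29% and 5.68% of all tested probes, with a list median of -0.14 beside -0.09 over all tested probes. The gene was Malt1, the protease that is known to cleave Roquin and Regnase-1, with 15371 and 10318 in TFH and 4255 and 4674 in naive T cells (2.82-fold, adjusted p = 6.94e-04). In pLN d12 TFR cells Malt1 gave 3283 and 3627, which overlapped the Treg arrays at 3300 and 3036, whereas in PP TFR cells it gave 14861 and 16837 against 5171 and 5473 in Treg cells. TFR minus Treg was called in PP (1.57 ± 0.21, adjusted p = 9.77e-04). In PP TFR against Treg cells, where 2 of the 13 were higher and 1 lower beside 6.36% and 3.12% of all tested probes, Zc3h12d was also higher (1.01 ± 0.23, adjusted p = 0.0193) and Ddx6 lower (-1.07 ± 0.27, 0.0273).

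Of 10 mRNAs known as targets of Roquin or Regnase-1, 9 were tested. Like the other lists, this one was chosen with earlier results of these data known. Its counts are thus a description and no test of the targets as a set. Against naive T cells, 7 were higher in TFH cells and 0 lower, beside 9.29% and 5.68% of all tested probes, with a list median of 2.53 beside -0.09 over all tested probes, and the largest differences were those of Ctla4 (4.33 ± 0.40, adjusted p = 4.39e-05), Il2 (3.22 ± 0.76, 0.0132) and Tnfrsf4 (3.21 ± 0.30, 4.49e-05). In Treg against naive T cells, Tnfrsf4, Ctla4 and Irf4 were higher and none was lower, beside 2.83% and 0.921% of all tested probes, with a median of 1.25 beside -0.03. In TFR against Treg cells of pLN d12, 0 were higher and 1 lower, Nfkbiz (-1.62 ± 0.21, adjusted p = 9.88e-04), beside 5.90% and 2.67% of all tested probes. In the same comparison of PP, 1 was higher and 0 lower, beside 6.36% and 3.12%. This was Il6, at 55 and 96 in TFR cells and not detected on either Treg array, both at the floor of 20 (limma adjusted p as fitted = 0.00942). With the Treg arrays raised to their lowest detected intensity, its group mean was at least 2.39-fold higher, leaving out the spread between arrays.

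Of 25 ligase partners, relatives and substrates, 24 were tested. In TFH against naive T cells 0 were higher and 3 lower, beside 9.29% and 5.68% of all tested probes, with a list median of -0.16 beside -0.09: Nedd4l, a relative of Itch (-3.27 ± 0.56, adjusted p = 0.00218), Dtx1, a ligase known from anergic T cells (-1.40 ± 0.28, 0.00483), and Klhl6, a Cul3 adaptor (-1.10 ± 0.18, 0.00141). In TFR against Treg cells of PP, 1 was higher and 4 lower, beside 6.36% and 3.12% of all tested probes, with a median of 0.03 beside -0.06. Peli2, a relative of Peli1, was detected only on Treg and TFR arrays: 191 and 130 in Treg and 195 and 158 in TFR cells of pLN d12, and 176 and 307 in Treg cells of PP, whereas TFR cells of PP gave 20, the floor of the scale, and 34.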

How the data were processed

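The authors deposited scanner files, which hold intensity and quality marks per feature (Agilent Feature Extraction 10.7.3.1, per the labels), and a series matrix of normalised intensity. They made the matrix from the geometric mean of each probe's 4 on-chip features, with flagged and outlying features left out. They then applied quantile normalisation, set the upper quartile to 1500 and raised values below 20 to 20, as whole numbers. The deposited other columns used were marks for outliers, saturation and signal well above background. Matrix values were taken to log2. Values rebuilt from the scanner files differed by a median of 0.031 to 0.032 (log2) per array.

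A probe was detected with at least 3 of 4 features well above background (43.0% to 58.0% of probes per array; 0 saturated), and was tested where 1 or more of the paired groups had it detected on both arrays. The number of arrays limits the precision. Group means were fitted to all 20 arrays with limma 3.58.1 in R 4.3.3 (lmFit, eBayes, 8 residual degrees of freedom), and p-values were two-sided and adjusted by Benjamini-Hochberg over the 22264 tested probes. The lone arrays of d25 take their spread from the other groups. P-values measure the spread between arrays of pooled animals.

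The members and lists were chosen with earlier results of these data known. All member probes are named; from the lists, at most 3 called genes per list and comparison, each by its probe with the highest mean level. For Icos, 3 probes were tested and all were called higher in TFH than in naive T cells. For 1 gene of the ligase list, results are not reported here, and it is left out of that list's counts. Fits were tested on simulated data with independent noise on each array and no effect of slide. The simulation therefore does not cover arrays of a slide deviating together.

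Slide comes from the file headers. Arrays of 1 slide deviated together from their group means (r from 0.518 to 0.867 over probes), so slide was also fitted as a fixed block, pairing the samples of a slide. Promoters and symbols are from RefSeq (GRCm38.p6), used for names and those sequences only.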

Additional observations from a re-analysis of the deposited data

Results flagged for a closer look

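No member probe was called for a difference between tissues in the effect of cell type, and 2 of the listed partner genes were, both by limma's interaction term. For Malt1, TFR minus TFH was 1.91 ± 0.30 (log2) greater in PP than in pLN d12 (adjusted p = 0.0255), and it was not called without slide 4 (2.15, adjusted p = 0.166). For Peli2, which was not detected in TFH cells, the TFR minus TFH term repeats the fitted difference of TFR cells between tissues (-2.75). TFR minus Treg of Peli2 differed by -3.31 ± 0.44 (adjusted p = 0.0103) and TFR minus TFH by -2.75 ± 0.44 (adjusted p = 0.0255) between PP and pLN d12. Both were fitted from values that include the floor of 20 and so give no size. With normexp correction these were -1.66 (adjusted p = 0.0372) and -1.30 (0.123), and without slide 4 neither was called (-3.33, 0.0723 and -2.37, 0.133).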

How the results depend on the processing

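No difference of a member that was called turned direction under any alternative. Asb2 (A_51_P115715) and Rnf128 in TFH against naive T cells, and Asb2 in TFR cells of PP against pLN d12, were called under all alternatives run, with Asb2 left out of the set of probes detected on all 20 arrays by that filter's construction. Counts of member probes called moved as follows, and the cause was not tested unless named. Restriction to probes detected on all 20 arrays, which removes that Asb2 probe, gave 0 for Treg against naive, for TFR against TFH in pLN d12 and for Treg and TFR cells between tissues, and 1 for TFR against Treg in pLN d12 and in PP. Testing all 39429 probes gave 0 for Treg against naive, 1 for TFR against Treg in pLN d12 and 0 for it in PP. Leaving out slide 4 gave 0 for Treg against naive, 1 for TFR against Treg in PP, 0 for Treg cells and 2 for TFR cells between tissues. In TFR against Treg and against TFH of pLN d12 the counts stayed at 2 and 1 without slide 4, but Asb2 lost its call (adjusted p = 0.138 and 0.0787) and Rnf128 gained one (0.0444 and 0.0467). Fitting the compared groups alone, which leaves few residual degrees of freedom, gave 0 for Treg against naive, TFR against Treg in pLN d12 and in PP, TFR against TFH in pLN d12 and Treg cells between tissues, and 2 for TFH against naive, Peli1 being lost there (0.0698). Normexp correction gave 1 for TFH cells between tissues and 1 for the interaction of TFR minus TFH, both Asb2. No minimum fold gave 2 for TFR cells between tissues.

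With slide as a fixed block (the replicate block, pairing the samples of a slide), 2 member probes were called in Treg against naive and 2 in TFR against TFH of pLN d12, Rnf128 being added to Asb2 in both, 3 in TFR against Treg of pLN d12 and of PP and 4 in TFH against naive. It added Zc3h12a in TFH against naive and in TFR against Treg of PP and Rnf128 in TFR against Treg of pLN d12, and changed no other call of a member; differences between tissues or days could not be fitted with it. With slide as a random block (consensus correlation 0.740), 0 were called in Treg cells between tissues and 7 by the F test. Leaving out 1 array at a time gave 0 to 1 for Treg against naive, 0 to 1 for TFR against Treg and 0 to 1 for TFR against TFH in pLN d12, 0 to 2 for TFR against Treg in PP and 1 to 2 for TFR cells between tissues.

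Over all tested probes, the number called was 3333 in TFH against naive (1424 to 4390 over the alternatives), 836 in Treg against naive (0 to 1395), 1909 and 1146 in TFR against Treg (554 to 2829) and against TFH (0 to 1905) of pLN d12, and 2109 and 776 in the same comparisons of PP (0 to 3196 and 0 to 1413). It was 500, 1040 and 2552 between tissues in Treg (0 to 570), TFH (0 to 1342) and TFR cells (607 to 3635), 124 and 132 for the interactions of TFR minus Treg (16 to 1079) and TFR minus TFH (0 to 643), 1 for d25 against d12 (0 to 31), 2 for GL7+ against GL7- (0 to 30) and 7450 by the F test (3823 to 13356). The compared groups alone gave 0 wherever a range starts at 0, and for GL7 and d25 other alternatives did so too, among them probes detected on all 20 arrays. In limma on all 20 arrays 259 and 2074 probes had an unadjusted p under 0.05 for GL7 and d25. The methods' t-test called 0 probes for GL7. Member values near the lowest detected intensity, 20 to 135 by array, are not resolved, which touches Zc3h12a and Asb2 in naive T cells.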
